A study of Mus musculus with 15 samples.

Results

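The genes described here encode the subunits of the 5 enzyme complexes of oxidative phosphorylation and cytochrome c, the protein that carries electrons between complexes III and IV. Members were chosen by gene symbol alone among probe sets annotated to exactly 1 gene. They were the genes starting with Nduf except the assembly factors (Ndufaf) for complex I, Sdha to Sdhd for complex II, Uqcr and Cyc1 for complex III, Cox4i, Cox5, Cox6, Cox7 and Cox8 for complex IV, Atp5 for complex V, and Cycs. This gave 84 of 18193 genes, with 36 in complex I, 4 in complex II, 9 in complex III, 17 in complex IV, 17 in complex V and Cycs alone. Together they had 174 probe sets, and each gene was read from its brightest probe set, judged on the average of the 15 arrays. Another 10 probe sets that list a subunit beside other genes were left out, and 8 subunit symbols occur only there, among them Ndufs6 and Ndufa11. All 84 members were tested, with no filter on low values.

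Oxidative phosphorylation takes place in the inner mitochondrial membrane. Complex I oxidises NADH and complex II oxidises succinate, complex III passes their electrons to cytochrome c, and complex IV hands them to oxygen. Complexes I, III and IV pump protons, and complex V uses the returning protons to make ATP. Nuclear genes encode all of complex II and most subunits of the others, while a few central subunits come from the mitochondrial genome, none of which had a probe set of 1 gene here. Brown adipose tissue, which surrounds the thoracic aorta of the mouse, is rich in mitochondria, as are heart and red skeletal muscle.

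RNA was measured in 15 entire aortas, root to bifurcation, with 1 Affymetrix array per mouse; all were male C57BL/6 mice killed at 9 weeks of age. All 15 mice lacked apolipoprotein E (Apoe), which raises plasma cholesterol and leads to atherosclerosis. Replicates 1 to 4 were Apoe null mice made diabetic at 6 weeks of age by 5 daily injections of streptozotocin, a beta-cell toxin, at 65 mg/kg in citrate buffer. Replicates 5 to 8 were Apoe null mice without diabetes, injected on the same schedule with buffer alone. Replicates 9 to 12 were diabetic mice that lacked both Apoe and RAGE, a receptor for glycated proteins encoded by Ager. Replicates 13 to 15 were buffer-injected Apoe/RAGE null mice without diabetes, a group reduced to 3 because labelled RNA could not be made from 1 mouse. The Apoe null mice were bought from a breeder, whereas the Apoe/RAGE null mice were bred in a laboratory colony, so genotype and colony cannot be told apart. Nothing in the labels says that mice shared a litter or a day, and precision is limited by having 3 or 4 arrays in a group.

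Levels are given as log2 values, on which a difference of 1 is a 2-fold change, and are compared only within a gene, since different probe sets bind with different strength. Of the 84 members, 73 had a mean level of 9 or more and 8 a mean under 7. Ndufb4, Cox4i2 and Cox7b2 lay below the median of all probe sets, which was 4.35 to 4.42 on the 15 arrays. The smooth muscle gene Acta2 read 13.19 to 13.45 on every array, so the labelled tissue showed its defining muscle marker. Adipose markers were also bright: Ucp1, the uncoupling protein of brown fat, read 10.48 to 12.31 and the adipocyte hormone gene Adipoq 11.42 to 12.35.

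The genotype labels of 2 arrays were not borne out. Ager itself gave no check by loss of signal, since 1 of its probe sets read 3.08 to 3.66 on all arrays. The other was not lower in Apoe/RAGE null aortas. It read 4.17 to 4.69 in Apoe null replicates 1 to 8 and 4.89 to 5.09 in replicates 13 to 15. Diabetic Apoe/RAGE null replicates 9 and 10 read 4.63 and 4.48 there, within the Apoe null range. Replicates 11 and 12 read 5.36 and 4.95, above that range. The sources used here do not place these probe sets relative to the deletion. Another 6 genes on chromosome 17, which also carries Ager, were picked with earlier results of these data known because they separate the genotypes. In Decr2 the Apoe null arrays read 5.32 to 6.01 and the non-diabetic Apoe/RAGE null arrays 6.84 to 6.98, whereas diabetic Apoe/RAGE null replicates 9 to 12 read 5.19, 5.10, 7.40 and 7.56. In Zfp52 the order was opposite, with 7.08 to 7.81 and 6.46 to 6.80 in those groups and 7.45, 7.98, 6.08 and 5.83 in replicates 9 to 12. Replicates 9 and 10 were nearer to the Apoe null mean than to the non-diabetic Apoe/RAGE null mean in 6 of 6 genes (Decr2, Zfp52, Eme2, Rnf5, Polh and Cyp39a1), replicate 11 in 1 and replicate 12 in 0. By these genes, replicates 9 and 10 read like Apoe null arrays, against their labels, and their RAGE genotype cannot be told from these files. Diabetic Apoe/RAGE null therefore means here the arrays labelled so, and the main differences that use this group are given with and without replicates 9 and 10.

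Promoters are shown for 6 members named in the results below, as examples that do not stand for the members as a whole. RefSeq promoter sequences on build GRCm38.p6 matched 68 of the 84 members, each running from 250 bases before the gene's start to 50 bases after it. Windows were searched on both strands for 7-letter cores of factors known to act on respiratory genes. These were GCATGCG for NRF1, CCGGAAG for the ETS factor GABPA, AAGGTCA for estrogen-related receptors and AAGATGG for YY1. The NRF1 core holds a palindrome, so its forms on both strands can overlap. It occurred in 11 of 68 members (16.2%) and in 4.95% of 17491 protein-coding genes. The ETS core occurred in 17 members (25%) against 12.9%, the receptor core in 8 (11.8%) against 4.73%, and the YY1 core in 10 (14.7%) against 7.18%. At least 1 of the 4 cores was present in 35 members (51.5%) and in 26.3% of protein-coding genes. The stretches below are the 250 bases before the start, read 5′ to 3′ along the gene, with matches to a core in capitals.
Cycs: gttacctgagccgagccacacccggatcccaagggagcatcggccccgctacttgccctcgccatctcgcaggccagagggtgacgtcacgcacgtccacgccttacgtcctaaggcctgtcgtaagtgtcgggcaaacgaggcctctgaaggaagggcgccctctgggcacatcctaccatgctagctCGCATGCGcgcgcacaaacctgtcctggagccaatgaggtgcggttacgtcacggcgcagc
Sdhb: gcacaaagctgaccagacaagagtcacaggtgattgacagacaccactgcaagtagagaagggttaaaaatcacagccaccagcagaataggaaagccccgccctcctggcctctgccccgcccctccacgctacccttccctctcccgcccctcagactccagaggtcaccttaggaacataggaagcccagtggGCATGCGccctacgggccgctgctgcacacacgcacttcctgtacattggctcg
Ndufb7: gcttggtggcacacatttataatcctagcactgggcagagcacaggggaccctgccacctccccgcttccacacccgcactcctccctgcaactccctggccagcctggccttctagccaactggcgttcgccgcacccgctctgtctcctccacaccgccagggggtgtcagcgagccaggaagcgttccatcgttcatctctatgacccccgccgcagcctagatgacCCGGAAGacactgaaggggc
Cox6a1: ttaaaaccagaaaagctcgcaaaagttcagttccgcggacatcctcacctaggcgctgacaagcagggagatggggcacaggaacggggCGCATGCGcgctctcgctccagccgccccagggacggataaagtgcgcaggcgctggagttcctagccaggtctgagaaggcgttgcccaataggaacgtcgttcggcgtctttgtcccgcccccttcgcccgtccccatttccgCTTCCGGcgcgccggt
Cox7a1: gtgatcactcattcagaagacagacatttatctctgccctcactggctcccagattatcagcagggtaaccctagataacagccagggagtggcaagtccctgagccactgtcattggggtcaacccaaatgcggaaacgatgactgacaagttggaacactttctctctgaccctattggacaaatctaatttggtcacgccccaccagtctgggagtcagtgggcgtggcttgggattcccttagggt
Cox8b: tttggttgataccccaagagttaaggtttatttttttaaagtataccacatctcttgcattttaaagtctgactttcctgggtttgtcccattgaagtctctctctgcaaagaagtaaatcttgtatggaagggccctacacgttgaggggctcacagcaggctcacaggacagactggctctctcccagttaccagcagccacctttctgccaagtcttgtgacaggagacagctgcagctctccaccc
They lie at chr6:50566570-50566819 on the minus strand, chr4:140961021-140961270 on the plus strand, chr8:83566508-83566757 on the plus strand, chr5:115348959-115349208 on the minus strand, chr7:30183921-30184170 on the plus strand and chr7:140900447-140900696 on the minus strand. In Cycs, the capitals are 2 overlapping NRF1 cores, 1 on each strand, and in Sdhb a single NRF1 core. Ndufb7 has an ETS core close to its start. Cox6a1, the widely expressed form of its subunit, has both overlapping NRF1 cores and an ETS core. None of the 4 cores is spelled out in these 250 bases of Cox7a1 or Cox8b, forms used in heart, muscle and brown fat, which have the lowest differences of the 84 members in the first comparison below. Only 35 of 68 members had any of the 4 cores in their windows, and a link between cores and expression differences was not tested. These matches describe letters in the windows and no binding was measured.

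The series set diabetic against non-diabetic aortas in each genotype and RAGE null against RAGE-bearing aortas in each disease state. The first comparison is diabetes in Apoe null mice. Group means of 79 of 84 members were lower in diabetic than in non-diabetic Apoe null aortas, with a median difference of -0.31 (log2), a 1.24-fold lower level. Over all 18193 genes the median difference was -0.0009 and 50.2% were lower. No member passed the limma test across all 45037 probe sets after Benjamini-Hochberg adjustment at 0.05, and no probe set did (0%), though 4791 probe sets had an unadjusted p under 0.05. The smallest adjusted p of a member was 0.347. Unadjusted, 28 members were lower at p under 0.05, against 5.94% of all genes, and 1 was higher. The groups were apart, with every diabetic array below every non-diabetic one, in 1 member against 3.10% of genes. In whole tissue, fewer cells of a type and less RNA per cell cannot be told apart.

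All 5 complexes had negative medians. They were -0.53 for complex III and -0.49 for complex II, -0.34 for complex I, -0.27 for complex V and -0.23 for complex IV, while Cycs was at -0.39. All 9 members of complex III, all 4 of complex II and all 17 of complex V had lower diabetic means, as did 34 of 36 in complex I and 14 of 17 in complex IV. Differences between complexes were not tested.

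**Figure D1:**
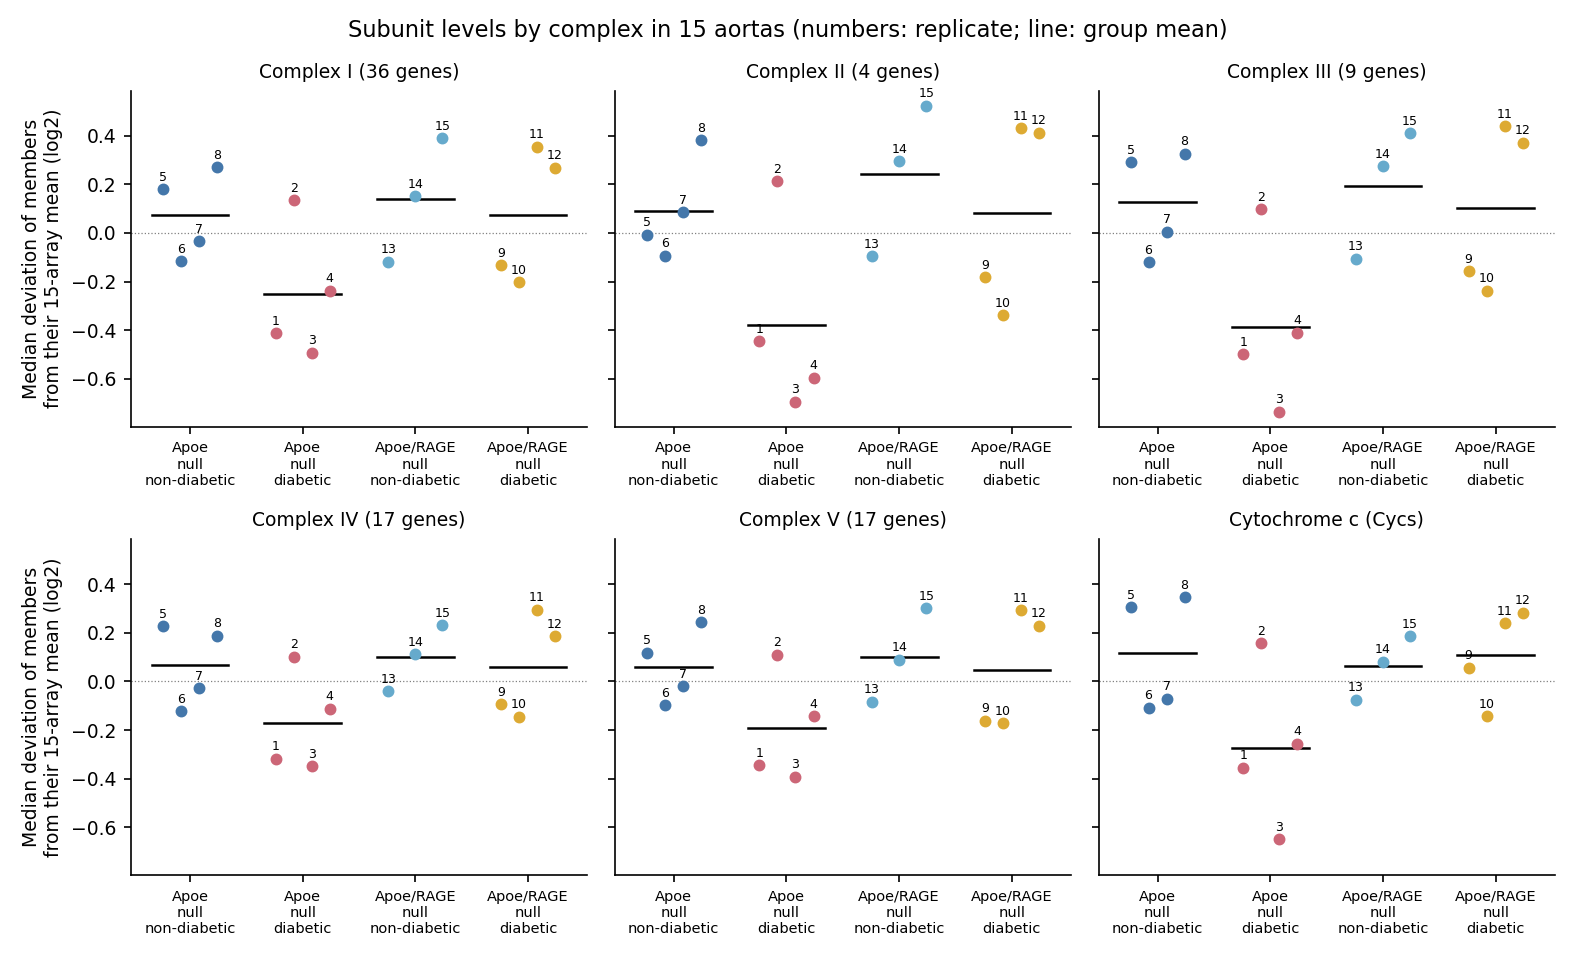
Each point is 1 array, labelled with its replicate number, and its height is the median over a complex's members of the deviation (log2) from each member's mean over 15 arrays. Lines are group means. In complex III the diabetic Apoe null arrays 1, 3 and 4 lie at -0.50, -0.74 and -0.41, while replicate 2 lies at 0.10, within the range of the non-diabetic arrays, and replicates 9 and 10 lie below 11 and 12.

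Array by array, the groups overlapped, in most members through 1 diabetic aorta that did not go with the others. For complex I, the median deviation of its members was 0.18, -0.12, -0.03 and 0.27 in non-diabetic Apoe null replicates 5 to 8 and -0.41, 0.13, -0.49 and -0.24 in diabetic replicates 1 to 4. Replicates 1, 3 and 4 lay below all 4 non-diabetic arrays, and replicate 2 lay above 6 and 7. For complex III the values were 0.29, -0.12, 0.01 and 0.33 without diabetes and -0.50, 0.10, -0.74 and -0.41 with diabetes. The same 3 arrays were lowest there. For complex IV they were 0.23, -0.12, -0.03 and 0.19 and -0.32, 0.10, -0.35 and -0.11, and replicate 4 lay just above non-diabetic replicate 6, so these groups overlapped further.

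Replicate 2 was the highest of the 4 diabetic Apoe null arrays in 76 of 84 members, which holds for 27.1% of all genes. This array is singled out because of its values in these same members, so that larger counts without it follow from the choice and are given only to show how far they rest on it. Without it, 59 members had every diabetic array below every non-diabetic one, against 9.48% of genes, and 67 were lower at an unadjusted p under 0.05, against 7.78%. The median difference was then -0.43, and -0.70 in complex III, but the smallest adjusted p of a member was 0.124 and none was called. With any of the other 7 arrays left out instead, the groups were apart and lower in 1 to 4 members, against 4.17% to 5.38% of genes, and 5 to 41 members were lower at an unadjusted p under 0.05, against 3.43% to 6.55%. The median then lay between -0.38 and -0.24.

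In complex I, Ndufv1, the flavoprotein that binds NADH, read 11.44, 11.03, 11.17 and 11.58 in Apoe null aortas without diabetes and 10.60, 11.35, 10.48 and 10.76 in diabetic ones. Replicates 1, 3 and 4 lay below all non-diabetic arrays and replicate 2 within their range. The difference was -0.50 ± 0.19 (SE; limma adjusted p = 0.401). Ndufs1, the large iron-sulfur subunit of the same arm, read 9.57, 9.43, 9.74 and 10.15 without and 9.02, 9.78, 8.64 and 8.84 with diabetes. Its order was alike, with replicate 2 above 3 of the 4 non-diabetic arrays, and its difference was -0.65 ± 0.28 (SE, adjusted p = 0.442). Ndufv3, an accessory subunit of that arm, read 11.71, 11.28, 11.21 and 11.51 without and 10.78, 11.21, 10.94 and 11.10 with diabetes. It was the 1 member whose groups did not overlap, though replicates 2 and 7 both read 11.21, and its difference was -0.42 ± 0.14 (SE, adjusted p = 0.350). Ndufa1, a small membrane subunit, had the next smallest p of complex I, with -0.36 ± 0.13 (SE, adjusted p = 0.379). Other subunits of the arm that takes up NADH were closer to the complex's median or above it, Ndufv2 with -0.34 ± 0.21 (SE, adjusted p = 0.6) and Ndufa2 with -0.18 ± 0.10 (SE, adjusted p = 0.544).

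Complex II, which is also an enzyme of the citric acid cycle, had 4 measured genes. Sdha, its flavoprotein, read 11.20, 11.05, 11.28 and 11.56 without and 10.61, 11.36, 10.42 and 10.44 with diabetes. Replicates 1, 3 and 4 lay below every non-diabetic array, and replicate 2 lay above all but replicate 8. The difference was -0.57 ± 0.22 (SE, limma adjusted p = 0.407). Sdhb, the iron-sulfur subunit whose promoter is shown above, differed by -0.45 ± 0.21 (SE, adjusted p = 0.475). Sdhc and Sdhd, the membrane anchors, had the same 3 arrays lowest of these 8.

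Complex III had the lowest median of the 5. Uqcrc2, a core protein, had its smallest p, with -0.55 ± 0.21 (SE, limma adjusted p = 0.398). Uqcrc1, the other core protein of its matrix side, read 10.64, 10.43, 10.67 and 11.03 without and 10.13, 10.58, 9.93 and 9.39 with diabetes. Replicate 4 was the lowest of all 15 arrays, and replicate 2 lay above replicate 6. The difference was -0.69 ± 0.27 (SE, limma adjusted p = 0.405). Uqcrq, a small subunit, read 11.18, 10.45, 10.72 and 11.11 without and 9.89, 10.85, 9.90 and 10.20 with diabetes, a difference of -0.65 ± 0.25 (SE, adjusted p = 0.404). Here too replicates 1, 3 and 4 lay below every non-diabetic array. Cyc1, the cytochrome that hands electrons to cytochrome c, differed by -0.47 ± 0.20 (SE, adjusted p = 0.432), and Uqcrfs1, the Rieske iron-sulfur protein, by -0.54 ± 0.25 (SE, adjusted p = 0.470). Cycs itself read 12.32, 11.91, 11.95 and 12.37 without and 11.66, 12.18, 11.37 and 11.76 with diabetes, with replicates 1, 3 and 4 again below all non-diabetic arrays. Its difference was -0.39 ± 0.16 (SE, adjusted p = 0.418).

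Complex IV held the members with the lowest differences and also some with small ones at low levels. Cox7c differed by -0.04 at a mean level of 5.49 and Cox8c by -0.07 at 6.12. Cox7b2 differed by -0.12 at 2.31 and Cox4i2 by -0.16 at 3.69. Cox7a1 is the form of subunit 7a used in heart, muscle and brown fat, and it read 11.17, 10.32, 10.64 and 11.15 without and 9.52, 10.74, 9.31 and 9.80 with diabetes. Replicates 1, 3 and 4 lay well below the lowest non-diabetic array, whereas replicate 2 lay above replicates 6 and 7. The difference was -0.98 ± 0.33 (SE, limma adjusted p = 0.36), the lowest of the 84 members. Cox7a2, the widely expressed form, read 12.33, 11.88, 11.96 and 12.20 without and 11.66, 12.07, 11.67 and 11.91 with diabetes, a difference of -0.27 ± 0.13 (SE, adjusted p = 0.475). The array order was similar over a narrower range.

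Cox8b, which in rodents is likewise the form of muscle and brown fat, read 12.46, 11.76, 11.91 and 12.14 without and 10.85, 11.91, 10.79 and 11.33 with diabetes. Its difference was -0.84 ± 0.27 (SE, limma adjusted p = 0.347), with replicates 1, 3 and 4 below all non-diabetic arrays and replicate 2 level with replicate 7. Cox8a, the common form, differed by -0.44 ± 0.21 (SE, adjusted p = 0.478). Cox7a1 and Cox8b thus had differences of larger size than their common forms, but the difference between paralogues was not tested. Beside the complex IV median of -0.23, subunits common to most tissues differed by -0.21 ± 0.13 (SE, adjusted p = 0.586) for Cox4i1, -0.29 ± 0.16 (adjusted p = 0.534) for Cox5a and -0.35 ± 0.16 (adjusted p = 0.463) for Cox5b.

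Cox6a2, the form of heart and skeletal muscle, behaved differently from both. It read 5.71, 6.73, 5.49 and 10.37 in non-diabetic Apoe null aortas and 7.32, 7.58, 5.77 and 8.15 in diabetic ones. It had the widest spread of all members, with an SD of 1.33 over 15 arrays, and replicate 8 was the highest array, the next being replicate 11 at 8.57. The difference was 0.13 ± 0.87 (SE, limma adjusted p = 0.974) and ran from -0.40 to 1.23 as single arrays were left out. Its partner Cox6a1 spanned only 12.56 to 13.06 over all 15 arrays. The cardiac myosin gene Myh6 was also highest in replicate 8, at 12.45 against 6.48 to 10.71 on the other arrays, and its part in the Cox6a2 value was not tested. Atp5g1, 1 of 3 genes for subunit c of complex V, was likewise highest there, at 9.98 against 8.18 to 8.83 on the others.

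**Figure D2:**
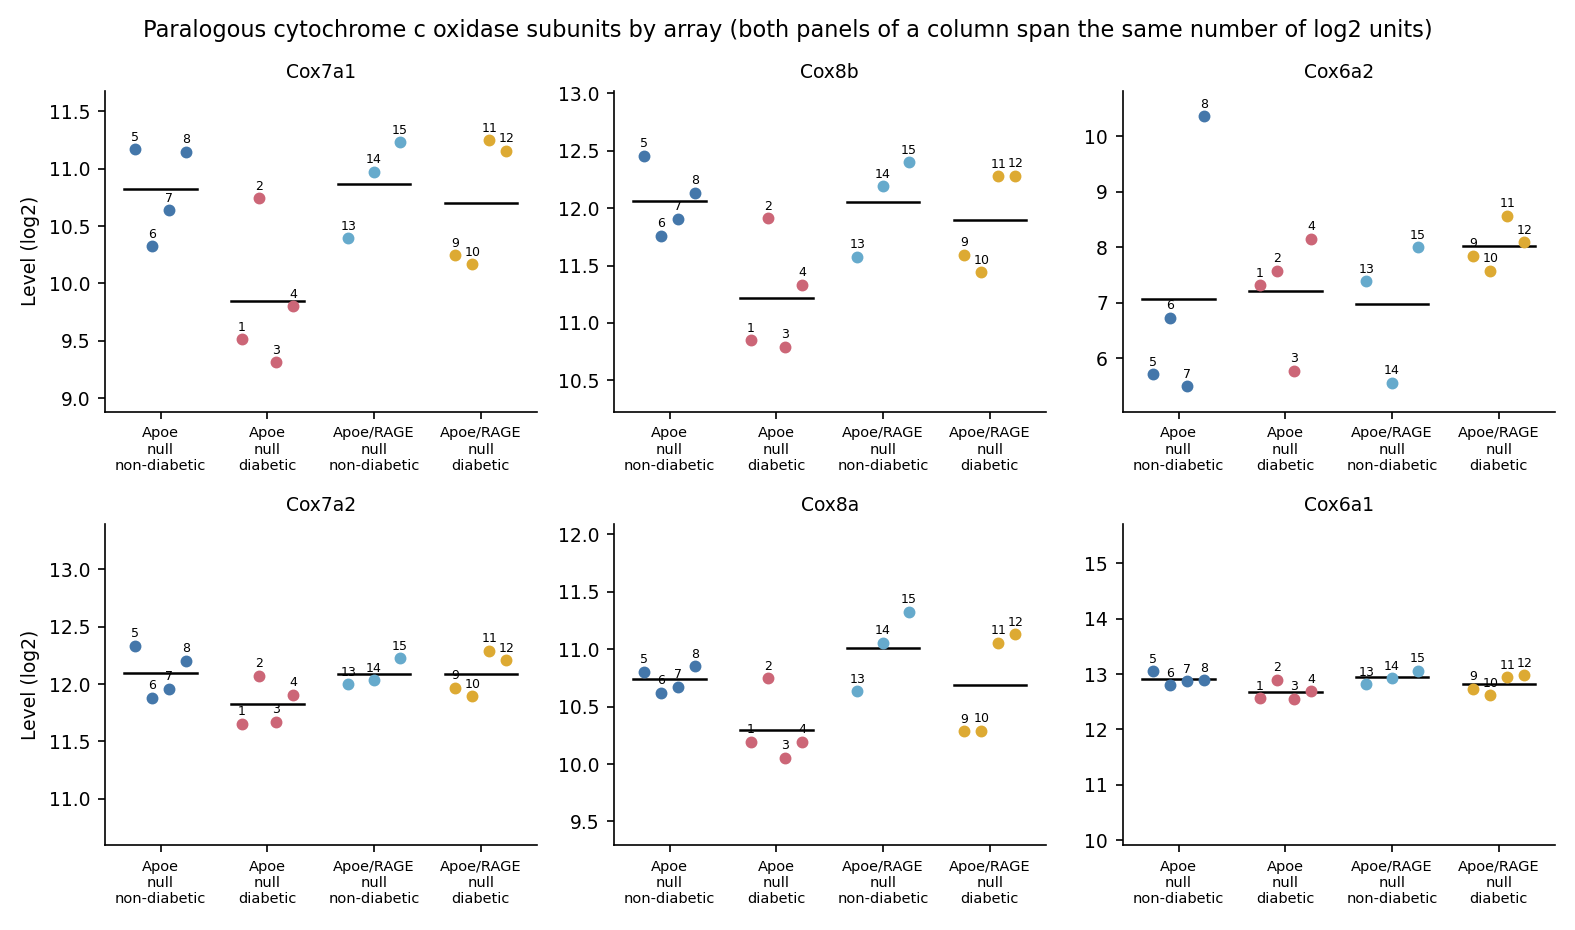
Levels (log2) of 3 pairs of complex IV paralogues on each array, with the tissue-restricted form above and the common form below; lines are group means and the numbers are replicates. Cox7a1 and Cox8b are low in replicates 1, 3 and 4, and Cox6a2 reaches 10.37 in replicate 8 while Cox6a1 stays within 12.56 to 13.06.

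Complex V members all had lower diabetic means, by smaller amounts. Atp5b, the catalytic beta subunit, read 11.98, 11.95, 12.16 and 12.41 without and 11.81, 12.20, 11.50 and 11.33 with diabetes. Replicates 1, 3 and 4 lay below all 4 non-diabetic arrays, and replicate 2 above 3 of them. The difference was -0.41 ± 0.20 (SE, limma adjusted p = 0.488). The alpha subunit gene Atp5a1 differed by -0.30 ± 0.14 (SE, adjusted p = 0.462) and the gamma subunit gene Atp5c1 by -0.27 ± 0.16 (SE, adjusted p = 0.582). Atp5k, which encodes a small membrane subunit, had the smallest p of the complex, with -0.39 ± 0.14 (SE, adjusted p = 0.388), and Atp5j2, another small subunit, the next, with -0.32 ± 0.14 (SE, adjusted p = 0.440). The 3 genes for subunit c were not alike, as Atp5g2 was lower in replicates 1, 3 and 4 than in all non-diabetic arrays, whereas Atp5g1 and Atp5g3 were not. The difference of Atp5g3 was -0.04 ± 0.10 (SE, adjusted p = 0.927).

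The 5 members with higher diabetic means included 3 of complex IV. Cox6b2, known as the testis form of subunit 6b, read 5.58, 5.21, 5.34 and 5.18 without and 5.47, 6.09, 5.66 and 5.91 with diabetes, at a level where few members lay. Only replicate 1 lay within the non-diabetic range. The difference was 0.45 ± 0.17 (SE, limma adjusted p = 0.382). Cox7a2l, which helps complexes III and IV to assemble into supercomplexes, was higher by 0.11 ± 0.08 (SE, adjusted p = 0.669).

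Of 50 members with several probe sets, 42 had the same sign of this difference in all of them, and so did all 36 members when only probe sets with a mean of 9 or more were counted. For RAGE deletion in diabetes the counts were 44 of 50 and 36 of 36. They were lower where differences were near 0, with 22 of 50 and 22 of 36 for diabetes in Apoe/RAGE null mice and 26 of 50 and 24 of 36 for RAGE deletion without diabetes.

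The second comparison asked whether Apoe/RAGE null aortas differed between diabetic and control mice. As labelled, 65 of 84 members had lower diabetic means, with a median of -0.07, against 55.8% of all genes and a median of -0.02. No probe set passed the limma test (0%; 3269 at an unadjusted p under 0.05), and the smallest adjusted p of a member was 0.674. Unadjusted, 2 members were under 0.05, Cox7a2l above and Ndufa4l2 below, against 7.71% of genes either way. Cox7a2l differed by 0.19 ± 0.09 (SE, limma adjusted p = 0.687), or 0.15 without replicates 9 and 10, and Ndufa4l2 by -0.28 ± 0.11 (SE, adjusted p = 0.674), or -0.11 without them. Cox6a2 had the largest difference in size, 1.05 ± 0.94 (SE, adjusted p = 0.817), or 1.36 without them, with an error nearly as large. Complex medians ran from -0.17 in complex II to -0.01 in complex IV. Without replicates 9 and 10, 77 members had higher diabetic means and the median was 0.16, with complex medians of 0.13 to 0.21, and no member had an unadjusted p under 0.05 (4.24% of genes did). The sign also turned with single arrays. Without replicate 15 the medians of complexes I, III, IV and V were 0.04, 0.02, 0.02 and 0.05, without replicate 10 those of complexes I, III and V were 0.0063, 0.01 and 0.03, and without replicate 9 that of complex V was 0.03. No direction can be read from this comparison.

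The diabetic Apoe/RAGE null group split into these pairs in nearly every member. Complex I medians were -0.13, -0.20, 0.36 and 0.27 in replicates 9 to 12 and -0.12, 0.15 and 0.39 in non-diabetic replicates 13 to 15. Replicates 11 and 12 both lay above 9 and 10 in 76 of 84 members, against 23.4% of genes, including all members of complexes II and III. Of the non-diabetic arrays, replicate 13 was low and replicate 15 high, so that these groups overlapped.

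The third comparison set the genotypes against each other without diabetes. Means were higher in Apoe/RAGE null aortas for 63 of 84 members, with a median difference of 0.06, against 50.6% of genes and a median of 0.0019. No probe set was called by limma (0%; 1159 had an unadjusted p under 0.05). No member had an unadjusted p under 0.05, against 2.62% of genes. Complex medians lay between 0.02 and 0.13, below the spread between arrays of either group. The sign of all 5 turned as single arrays were left out. Medians then ran from -0.06 to 0.20 in complex I, -0.0084 to 0.29 in II and -0.03 to 0.24 in III. In complexes IV and V they ran from -0.04 to 0.09 and from -0.08 to 0.12. No direction can be read from this comparison either. The 5 members on chromosome 17, where Ager lies, were Ndufa7, Ndufb10, Ndufv2, Ndufv3 and Cox7a2l, and their differences ran from -0.09 to 0.20.

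The fourth comparison set RAGE null against RAGE-bearing aortas in diabetes. As labelled, 76 of 84 members had higher means in diabetic Apoe/RAGE null than in diabetic Apoe null aortas, with a median of 0.31, a 1.24-fold higher level, against 49.4% of genes and a median of -0.0021. This comparison shares the diabetic Apoe null arrays with the first, so that opposite signs in both follow in part from the same 4 arrays. The limma test called 110 probe sets (0.244%), none of them a member. The smallest adjusted p of a member was 0.122. Unadjusted, 28 members were higher at p under 0.05, against 6.62% of genes, and 1 was lower. Groups were apart and higher in 2 members against 1.86% of genes.

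Medians were 0.52 in complex III, 0.46 in complex II, 0.32 in complex I, 0.28 in complex V and 0.26 in complex IV, with Cycs at 0.39. Without replicates 9 and 10, the medians were 0.82, 0.81, 0.58, 0.48 and 0.42 in the same order, with Cycs at 0.54. Then 71 members had both remaining arrays above all 4 diabetic Apoe null arrays, against 13.3% of genes. At an unadjusted p under 0.05, 68 were higher, against 10.6% of genes, yet none was called. Replicates 11 and 12, the only arrays then left in the group, were the higher pair in 76 of 84 members. The larger counts follow in part from that. Without replicate 2, which was singled out on these same members, limma called 2.07% of probe sets and 2 members, Ndufv1 (0.80, adjusted p = 0.0355) and Uqcrc2 (0.77, adjusted p = 0.0412). With any other of these 8 arrays left out, it called 0 members.

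**Figure D3:**
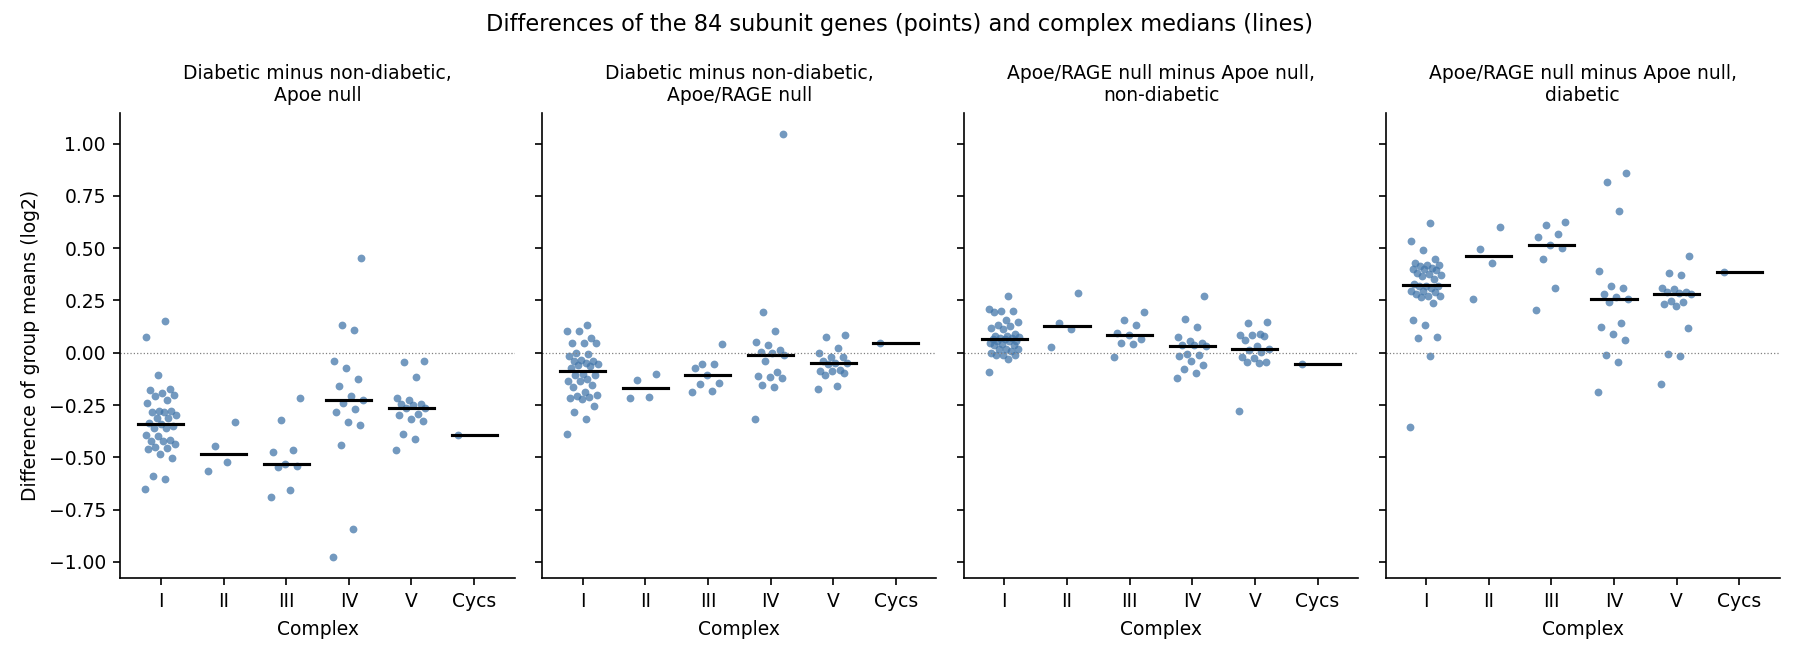
Each point is the difference of group means (log2) of 1 member in 1 of the 4 comparisons, sorted by complex, and each line is the median of a complex. In diabetic against non-diabetic Apoe null aortas 79 of 84 points lie below 0, and in Apoe/RAGE null against Apoe null diabetic aortas 76 lie above 0, while in both other panels the points are spread around medians of -0.07 and 0.06, with Cox6a2 at 1.05 in diabetic against non-diabetic Apoe/RAGE null aortas.

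Ndufv1 read 11.25, 11.12, 11.74 and 11.58 in diabetic Apoe/RAGE null replicates 9 to 12 and 10.60, 11.35, 10.48 and 10.76 in diabetic Apoe null replicates 1 to 4. Replicate 2 lay above 9 and 10, so the groups overlapped. The difference was 0.62 ± 0.19 (SE, limma adjusted p = 0.155), and 0.86 without replicates 9 and 10. The 2 members without overlap were both accessory subunits of complex I. Their count was near the 1.86% of all genes whose groups were apart and higher, so it marks nothing particular to the members. Ndufb7 read 10.98, 10.97, 11.22 and 11.08 against 10.59, 10.92, 10.62 and 10.72, a difference of 0.35 ± 0.11 (SE, adjusted p = 0.168), or 0.44 without replicates 9 and 10. Ndufa2 read 10.41, 10.25, 10.47 and 10.35 against 10.07, 10.24, 9.90 and 10.20, a difference of 0.27 ± 0.10 (SE, adjusted p = 0.222), or 0.31 without them. In both, the nearest arrays of the groups were close, at 10.97 and 10.92 in Ndufb7 and at 10.25 and 10.24 in Ndufa2.

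In complex II, Sdha read 10.89, 10.82, 11.57 and 11.53 in diabetic Apoe/RAGE null aortas, of which replicates 9 and 10 lay below replicate 2 and 11 and 12 above it. It differed by 0.50 ± 0.22 (SE, limma adjusted p = 0.316), or 0.84 without replicates 9 and 10. Sdhd, a membrane anchor, had the smallest p of the complex, with 0.60 ± 0.25 (SE, adjusted p = 0.282), or 1.00 without them. In complex III, Uqcrc2 read 11.46, 11.16, 11.91 and 11.77 against 10.86, 11.63, 10.59 and 10.96. Replicates 11 and 12 were above all diabetic Apoe null arrays and 9 and 10 were not, and the difference was 0.57 ± 0.21 (SE, adjusted p = 0.215), or 0.83 without replicates 9 and 10. Uqcrc1 differed by 0.61 ± 0.27 (SE, adjusted p = 0.309), or 1.07 without them, and Uqcr11, a small subunit, by 0.50 ± 0.20 (SE, adjusted p = 0.251), or 0.76 without them.

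Cox7a1, Cox6a2 and Cox8b had the largest differences of complex IV. Cox7a1 read 10.24, 10.17, 11.25 and 11.16 in the diabetic Apoe/RAGE null aortas, a difference of 0.86 ± 0.33 (SE, limma adjusted p = 0.237), or 1.36 without replicates 9 and 10. Cox8b read 11.59, 11.44, 12.28 and 12.28, a difference of 0.68 ± 0.27 (SE, adjusted p = 0.255), or 1.06 without them. Cox6a2 differed by 0.82 ± 0.87 (SE, adjusted p = 0.725), or 1.13 without them. In Cox7a1 and Cox8b, replicates 11 and 12 lay above at least 3 of the 4 non-diabetic Apoe null arrays. In complex V, Atp5a1 had the smallest p, with 0.37 ± 0.14 (SE, adjusted p = 0.221), or 0.60 without replicates 9 and 10, followed by Atp5pb of the peripheral stalk with 0.31 ± 0.13 (SE, adjusted p = 0.278), or 0.44 without them. Atp5g3 differed by -0.0046 ± 0.10 (SE, adjusted p = 0.991), or 0.08 without them.

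Ndufa4l2 went the other way and had the smallest p of all members. It is a relative of Ndufa4, a protein now assigned to complex IV, and is known to be induced by low oxygen. It read 5.92, 5.79, 6.15 and 6.26 in diabetic Apoe/RAGE null aortas and 6.34, 6.46, 6.52 and 6.23 in diabetic Apoe null aortas. Replicates 9 and 10 were the lowest of all 15 arrays, and replicate 12 lay above replicate 4. The difference was -0.36 ± 0.10 (SE, limma adjusted p = 0.122), and -0.18 without replicates 9 and 10. Ndufa4 was higher in replicates 11 and 12 than in 9 and 10, as most members were.

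The interaction, the diabetes difference in Apoe/RAGE null minus that in Apoe null mice, was positive in 80 of 84 members, with a median of 0.25 against -0.0014 over all genes. No probe set was called by limma (0%; 3251 at an unadjusted p under 0.05), and the smallest adjusted p of a member was 0.675. Only Ndufa4l2 had an unadjusted p under 0.05, against 8.57% of genes, with a negative value of -0.36. Without replicates 9 and 10 the median was 0.48 and 30 members were positive at an unadjusted p under 0.05, against 5.31% of genes, but none was called. Here too the group was then left with only replicates 11 and 12, the higher pair in most members.

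Over the 15 arrays the complexes kept nearly 1 order. The 5 arrays with the lowest median over all members were replicates 1, 3, 4, 9 and 10 and the 5 with the highest were 5, 8, 11, 12 and 15. Complexes I, III and V had exactly these arrays at both ends. Complex II had replicate 14 in place of 5 among the highest, and complex IV had replicate 6 in place of 9 among the lowest. The range between arrays was 1.22 in complex II, 1.17 in complex III, 0.88 in complex I, 0.69 in complex V and 0.64 in complex IV. Complexes I and IV include the dim members named above. The complexes were read from the same libraries, so that these orders are not independent of each other.

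Other genes of mitochondrial energy metabolism mostly differed in the same direction as the subunits. Outside the citric acid cycle, their medians were smaller in size than those of the subunits (-0.31 in the first comparison and 0.31 in the fourth). In diabetes in Apoe null mice, all 16 measured genes of the citric acid cycle had lower means, with a median of -0.55. So did 40 of 45 assembly factors (median -0.28), 75 of 76 genes of the mitochondrial ribosome (-0.21) and 19 of 23 import genes (-0.22). With RAGE deletion in diabetes, 16 of 16 citric acid cycle genes had higher means (median 0.49), as did 33 assembly factors (0.15), 69 ribosomal genes (0.19) and 18 import genes (0.11). Without replicates 9 and 10 the counts were 16, 42, 75 and 22 and the medians 0.84, 0.39, 0.37 and 0.40. None of these genes passed the limma test in either comparison, with or without those arrays. Cs, citrate synthase, read 11.38, 11.19, 11.28 and 11.49 without and 10.78, 11.43, 10.72 and 11.02 with diabetes in Apoe null aortas, again with replicate 2 above most non-diabetic arrays. Assembly factors and ribosomal genes had the same 5 lowest and 5 highest arrays as the subunits.

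Among 15 regulators of these genes, 10 had lower diabetic means in Apoe null mice, with a median of -0.13, and none passed the test. Esrra, a nuclear receptor that acts on respiratory genes, read 7.45, 7.27, 7.18 and 7.67 without and 6.89, 7.28, 6.65 and 6.81 with diabetes, a difference of -0.49 ± 0.18 (SE, limma adjusted p = 0.392). Its array order resembled that of the subunits. Ppargc1a, a coactivator of mitochondrial biogenesis, read 7.64, 6.95, 7.36 and 8.10 without and 7.45, 8.67, 7.72 and 8.72 with diabetes, with replicates 2 and 4 high and a difference of 0.63 ± 0.34 (SE, adjusted p = 0.532). Nrf1, the factor whose core was searched above, differed by 0.02 ± 0.15 (SE, adjusted p = 0.980). Pprc1, another of the 15, was higher with diabetes by 0.53 ± 0.18 (SE, adjusted p = 0.362). With RAGE deletion in diabetes, as labelled, 10 of the 15 had higher means (median 0.13). Without replicates 9 and 10 the count was 11 and the median 0.26. Pprc1 was lower in this comparison as labelled, with -0.73 ± 0.18 (SE, adjusted p = 0.0941), so it went against most subunits in both comparisons. It read 6.74, 6.56, 6.43 and 6.11 in replicates 9 to 12 and 7.47, 6.73, 7.46 and 7.13 in replicates 1 to 4.

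Medians over both lists of adipose markers were lowest in the same 5 arrays as the subunits, though single markers did not all follow. Ucp1 read 12.18, 11.83, 11.93 and 12.08 in non-diabetic and 10.56, 11.97, 10.48 and 10.76 in diabetic Apoe null aortas, and 11.70, 12.18 and 12.20 in non-diabetic and 11.26, 10.90, 12.20 and 12.31 in diabetic Apoe/RAGE null aortas. Replicates 1, 3, 4, 9 and 10 were the 5 lowest, as for the subunits. Over the 6 measured markers of brown adipocytes the median deviation spanned -0.50 to 0.28 in diabetic Apoe null aortas and -0.03 to 0.37 in their controls. In Apoe/RAGE null aortas it spanned -0.36 to 0.43 with diabetes and -0.12 to 0.41 without it. In diabetes in Apoe null mice 3 of the 6 had lower means, Ucp1 by -1.06 ± 0.33 (SE, limma adjusted p = 0.347). The other 3 had higher means, Ppargc1a by 0.63, Dio2 by 0.27 ± 0.24 (SE) and Prdm16 by 0.12 ± 0.20 (SE). Prdm16 was highest in replicate 9, at 10.18, where the subunits were low.

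The 6 measured markers of white adipocytes all had lower diabetic means in Apoe null mice, with a median of -0.48, and their arrays at both ends were those of the subunits. In Apoe null aortas their median deviation spanned -0.59 to 0.12 with diabetes and 0.01 to 0.34 without it. In Apoe/RAGE null aortas it spanned -0.42 to 0.50 and -0.08 to 0.35. The 6 smooth muscle markers had small differences in the first comparison (median 0.06, 6 of 6 higher). They were lower in 6 of 6 in the fourth (median -0.21, or -0.27 without replicates 9 and 10). By array, their median deviation was -0.16, 0.27, 0.20 and -0.12 in replicates 5 to 8. In diabetic Apoe null replicates 1 to 4 it was 0.25, -0.13, 0.29 and -0.02. Their 5 highest arrays were replicates 1, 3, 6, 7 and 13, none among the 5 highest of the subunits. Replicates 2, 5, 10, 11 and 15 were their 5 lowest, 1 of them shared with the subunits. Apart from the leptin gene Lep, which lay below the array medians on average, and Elovl3, which read 4.39 to 9.33, the adipose and smooth muscle markers read above 6.9 on every array. The part of adipose tissue in the subunit values was not tested.

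**Figure D4:**
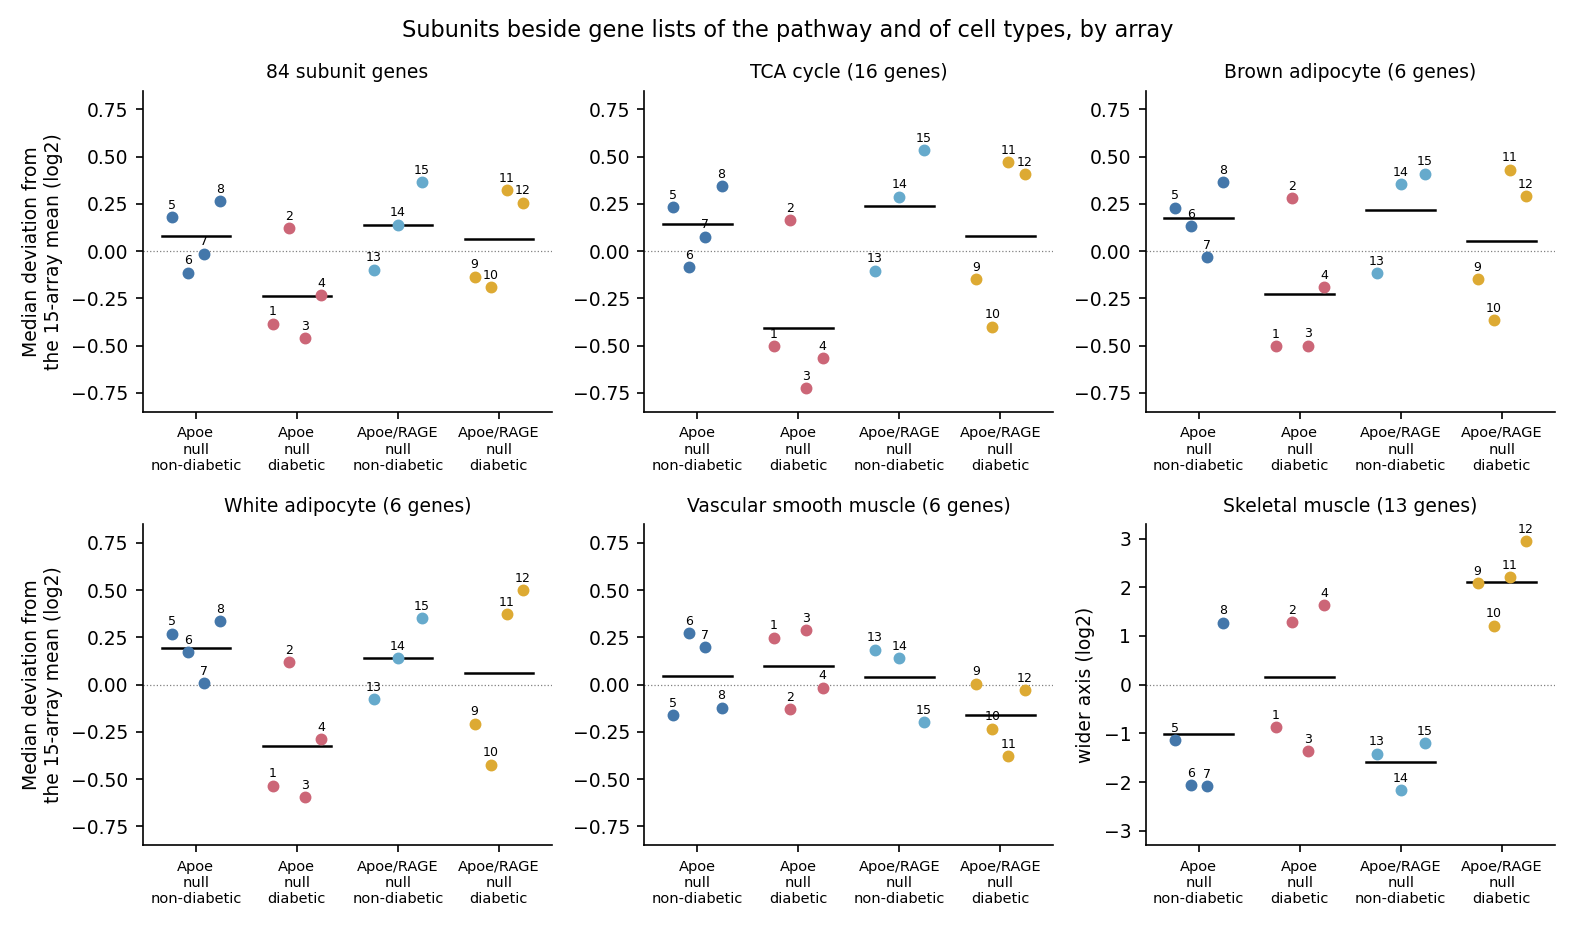
Points are arrays, labelled by replicate, and heights are medians over a list of the deviation (log2) from each gene's mean over 15 arrays; lines are group means and the skeletal muscle panel has a wider axis. Subunits, citric acid cycle genes and both adipocyte lists share replicates 1, 3, 4, 9 and 10 as their 5 lowest arrays, and skeletal muscle genes do not.

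Skeletal muscle markers followed another order. The median deviation of 13 such genes was -1.14, -2.07, -2.08 and 1.27 in Apoe null controls and -0.88, 1.29, -1.37 and 1.63 in their diabetic counterparts. In Apoe/RAGE null aortas the values were -1.42, -2.17 and -1.20 without and 2.09, 1.21, 2.21 and 2.95 with diabetes. All 4 diabetic Apoe/RAGE null arrays were high, including replicates 9 and 10, in which the subunits were low, and only 1 of the 5 lowest arrays was shared with the subunits. Their part in the subunit values was not tested.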

How the data were processed

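Expression in 15 mouse aortas was measured on Affymetrix arrays. The deposited values are log2 levels per probe set, made by the authors with RMA, per the submitters' processing notes and the series' design text, which also says that arrays were normalized together with their controls; whether that was 1 run or several is not settled by this text. No version is given in the sources used here, and the values were used as deposited. All 15 columns matched 1 sample each.

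Removing 64 controls from the 45101 probe sets left 45037 for testing. The 2016 array annotation assigns 1 gene to 34945 of them and several genes to 932, while 9160 remain unnamed here. All 84 members matched a RefSeq gene table by Entrez ID.

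The test was limma 3.58.1 (R 4.3.3), fitted to the 15 arrays together with a mean for each group and moderated variances (eBayes). P-values were adjusted by Benjamini-Hochberg across the 45037 probe sets, with a threshold of 0.05. The fit was tested on simulated data. Lists were described by counts and medians only. A deviation is an array's level minus the gene's mean over the 15 arrays.

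The members, lists, rule for named genes and alternatives were chosen with earlier results of these data known. Every member could be named. The rule gave full statistics, per complex and comparison, to the pair with the smallest p, and also to core subunits, to paralogue sets and to the largest and smallest spreads. They are printed for the pairs for diabetes in Apoe null and RAGE deletion in diabetes, and for core subunits in diabetes in Apoe null; others are covered by counts, medians and ranges. Ndufb7 and Ndufa2 were named because a count of 2 consisted of them, and Ndufv2, Cs, Myh6 and the regulators shown were chosen after their values were seen.

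Alternatives were quantile normalization, median centring, trended robust variances, array weights, a fit of only the pair of groups compared, removal of the dimmer probe sets, 1 probe set per gene, removal of probe sets that may share probes, the submitters' threshold of B above 0, each array left out in turn, replicates 9 and 10 left out together, and the 2 arrays least like the rest left out. Leaving out replicates 9 and 10 for the other gene lists, and single arrays for the counts of members with groups apart, was added after seeing the data. Plots were made with matplotlib 3.10.9 (Python 3.11.15).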

Additional observations from a re-analysis of the deposited data

How the results depend on the processing

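No paired analysis was possible because the replicate numbers run from 1 to 15 through the series and no number occurs in 2 groups. The count of members called was 0 under 128 of 129 alternatives over the 5 tests, and 2 for RAGE deletion with diabetes without replicate 2. Medians of the complexes in diabetes in Apoe null and RAGE deletion with diabetes kept their sign in all 284 alternatives run. Over all 5 tests, 702 of 710 complex medians moved by less than the spread between replicates. The other 8 all came from leaving out replicates 9 and 10. Diabetes in Apoe/RAGE null then gave 0.19 in complex II and 0.21 in complex III. RAGE deletion with diabetes gave 0.58, 0.81 and 0.82 in complexes I, II and III, and the interaction 0.51, 0.68 and 0.37 in complexes I, II and IV.

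Counts of probe sets called depended on the setting more than the medians did. For diabetes in Apoe null the count of 0 became 1 with quantile normalization, dimmer probe sets left out, 1 probe set per gene or shared probe sets left out, 2 without the 2 arrays least like the rest, 5 with only both groups, 7 with array weights and 76 with B above 0, and ran from 0 to 3 with single arrays left out. For diabetes in Apoe/RAGE null it became 12 with only both groups and 4 with B above 0, and ran from 0 to 49, the latter without replicate 12. For RAGE deletion without diabetes it became 9 without replicates 9 and 10 and 5 with only both groups. For RAGE deletion with diabetes, 110 became 53 with array weights, 253 with dimmer probe sets left out, 72 with 1 probe set per gene, 22 without replicates 9 and 10, 4 without the 2 arrays least like the rest, 0 with only both groups and 321 with B above 0. It ran from 0 (without replicate 1, 3, 4 or 14) to 931 (without replicate 2). No member had B above 0 in any of the 5 tests. The causes were not tested.

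Single named members were followed only in diabetes in Apoe null and RAGE deletion with diabetes. Atp5g3, Atp5g1 and Cox6a2 were those whose sign changed there. In diabetes in Apoe/RAGE null, 77 members had higher diabetic means without replicates 9 and 10, against 19 with them. Atp5g3 in RAGE deletion with diabetes became 0.022 with array weights and 0.076 without replicates 9 and 10, and ran from -0.049 to 0.050 with single arrays left out. In diabetes in Apoe null the ranges were -0.095 to 0.059 for Atp5g3, -0.25 to 0.35 for Atp5g1, which turned positive without replicate 2 or 8, and -0.40 to 1.23 for Cox6a2, which turned negative without replicate 4, 5 or 7. Members below the array medians (Cox7b2, Ndufb4 and Cox4i2) are limited by signal over background.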

Other observations

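Macrophage markers and the mitochondrial genes did not share an order of arrays. The 6 measured macrophage markers had higher diabetic means in both genotypes, with medians of 0.23 in Apoe null and 0.54 in Apoe/RAGE null aortas (0.41 without replicates 9 and 10), and none passed the limma test after Benjamini-Hochberg adjustment. Their median deviation was highest in replicate 10, at 0.96, where the median over all subunits was -0.19. None of the 5 arrays lowest in macrophage markers was among the 5 lowest in the subunits. Endothelial markers shared 2 of the 5 lowest arrays with the subunits and 1 of the 5 highest.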
